A study of Oryza sativa with 15 samples.

Results

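The 4 unfolded protein response regulators described here are IRE1 (LOC_Os07g28820.MSUv7.0), bZIP50 (LOC_Os06g41770.MSUv7.0), bZIP39 (LOC_Os05g34050.MSUv7.0) and bZIP60 (LOC_Os07g44950.MSUv7.0). They were taken by gene identifier, whatever their level, from a table of 24073 rice genes, and all 4 were among the 20462 genes that passed the filter on low counts. The libraries were made from messenger RNA of whole Oryza sativa shoots, cultivar Nipponbare, with 3 samples in each of 5 groups. All plants shared 3 days of germination, pots of 7 plants and 10 days of growth at 90% humidity, with days of 12 h at 30 °C and nights at 27 °C. The first heat group came from pots at 3 g of water per g of soil moved to 40 °C for 30 min, and the second from like pots moved for 60 min. The mild drought group grew at 1.5 g/g and the severe drought group at 1.25 g/g, both without heat shock. The wet control grew at 3 g/g without heat shock, and every group was collected 6 h after dawn.

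Proteins that enter the secretory pathway fold in the endoplasmic reticulum, and when unfolded proteins build up there, cells raise the genes for chaperones and disulfide enzymes, which is the unfolded protein response. In plants it is known to run through an RNA-splicing arm, in which the membrane kinase and ribonuclease IRE1 cuts the mRNA of a bZIP transcription factor, and through a protease arm, in which membrane-anchored bZIP factors are cut and move to the nucleus. In rice, bZIP50 is the splicing target of IRE1, while bZIP39 and bZIP60 are membrane-bound factors. The counts are totals per gene, so they show the amount of transcript, and neither the splicing of bZIP50 nor the cutting of bZIP39 and bZIP60 was measured.

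Total counts per library were between 67857233 and 77969214 after 30 min of heat and between 58426465 and 76678737 after 60 min. Mild drought libraries had between 49479059 and 67738318, those of severe drought between 52596199 and 60320309, and those of the wet control between 60453774 and 68226451. The 4 regulators had 348 to 24161 counts per library, for which counting error alone is 0.643% to 5.36% of the value (1 SD). The labelled treatments and tissue were checked by marker genes. HSP101, a heat shock chaperone, averaged 19918 CPM (the counts of a gene scaled to a library of standard size, with TMM factors that adjust for differences in RNA composition) after 30 min and 1646 CPM after 60 min of heat, against 2.63 CPM in the wet control. PP2C30, a phosphatase of abscisic acid signalling, averaged 6.99 CPM in mild and 12.0 CPM in severe drought, against 1.23 CPM in the wet control, but also 3.89 and 5.16 CPM after 30 and 60 min of heat. PP2C30 was at 6.64 CPM or more in every drought library and at 5.64 CPM or less in every heat library. HOX22, a homeobox gene taken as a second drought marker, averaged 49.3 CPM in mild and 65.1 CPM in severe drought, against 24.5 CPM in the wet control. It was as high in heat, at 60.5 and 54.1 CPM, so HOX22 does not set drought apart from heat. The leaf genes CAB1R, CAB2R and RBCS were at 6875 CPM or more in every library. Of 2 root markers, LSI2 had 0 counts everywhere, which allows up to 3 counts, or 0.0385 to 0.0606 CPM by unscaled totals, while LSI1 averaged 16.2 to 25.3 CPM by group. The seed storage gene GluA1 had 0 to 7 counts. Whether the 3 samples of a group were grown in separate pots is not stated in the labels, so the p-values below rest on a spread that may partly be technical. In whole shoots, a change in the share of cells that express a gene and a change in RNA per cell cannot be told apart.

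All 4 regulators were higher after both heat treatments than in the wet control, and at both times bZIP60 had the largest fold change. After 30 min of heat the rise was 5.69-fold for IRE1, 9.85-fold for bZIP50, 11.0-fold for bZIP39 and 42.0-fold for bZIP60. After 60 min it was 2.60-fold, 5.70-fold, 4.57-fold and 8.02-fold for the same genes in that order. In neither drought did a regulator pass the test, where only 0.528% to 1.64% of all genes were called per direction. A count of 0 in 4 thus says little by itself. The comparisons with the wet control share its 3 libraries, so they are not independent of each other.

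**Figure D1:**
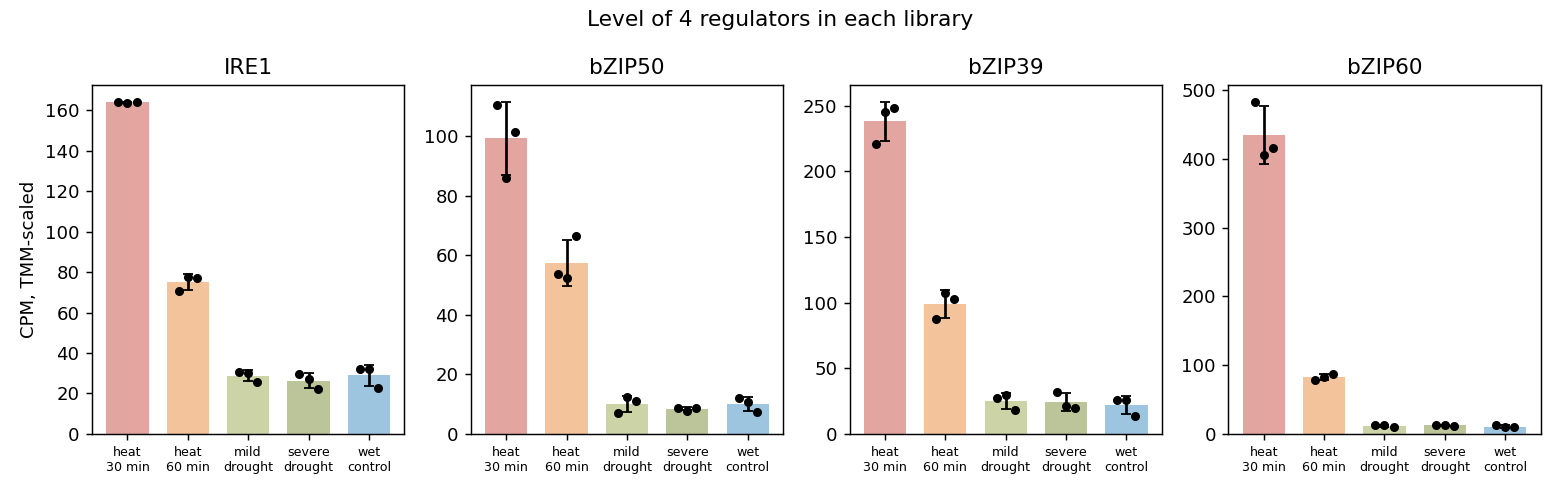
Level of each regulator in each of 15 libraries, in CPM scaled by TMM factors, with 1 panel per gene and its own linear axis from 0. Points are libraries, bars are group means and error bars are SD (n = 3). In every panel the 3 libraries at 30 min of heat lie above the 3 at 60 min, which lie above all drought and wet control libraries. How many of all genes lie in this order was not counted.

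IRE1, the sensor that carries both the kinase and the ribonuclease, had 164.4, 163.9 and 164.1 CPM after 30 min of heat and 70.7, 77.6 and 77.1 CPM after 60 min, against 31.8, 32.0 and 22.8 CPM in the wet control. Neither heat group overlapped the wet control. How many of all genes were without overlap was not counted, here or for the other regulators below. The 30 min libraries lay closer together, with a coefficient of variation of 0.168%, than the counting error of at least 1.10% for each of them. IRE1 was higher than in the wet control by 2.51 ± 0.16 on the log2 scale after 30 min (SE, adjusted p = 3.68e-08) and by 1.38 ± 0.15 after 60 min (adjusted p = 1.93e-05). These and all later adjusted p are from edgeR's quasi-likelihood test with Benjamini-Hochberg adjustment over the 20462 genes tested, at a threshold of 0.05, with the spread estimated over all 15 libraries. Over all genes, 19.3% were called higher and 19.6% lower after 30 min, and 16.2% higher and 15.8% lower after 60 min, so a call in heat is common. All 4 regulators were called higher at both times.

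bZIP50, the transcription factor whose mRNA IRE1 splices, had 110.4, 86.0 and 101.3 CPM after 30 min and 53.6, 52.3 and 66.3 CPM after 60 min of heat, against 12.1, 10.7 and 7.42 CPM in the wet control. The groups did not overlap. The log2 fold change against the wet control was 3.30 ± 0.23 after 30 min (adjusted p = 1.26e-07) and 2.51 ± 0.22 after 60 min (adjusted p = 3.24e-06, edgeR). Among all genes tested, 480 had a larger log2 fold change than bZIP50 after 30 min and 395 after 60 min.

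bZIP39, a factor held in the endoplasmic reticulum membrane until it is cut, had 220.9, 245.3 and 248.3 CPM after 30 min and 87.2, 107.4 and 103 CPM after 60 min of heat, against 25.6, 25.7 and 13.8 CPM in the wet control. Again no heat library overlapped the wet control. It was higher by 3.46 ± 0.29 on the log2 scale after 30 min (adjusted p = 6.92e-07) and by 2.19 ± 0.27 after 60 min (adjusted p = 5.78e-05, edgeR). Its wet control libraries differed among themselves by up to 1.87-fold, the widest spread within a group for any of the 4 genes.

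bZIP60, the other membrane-bound factor, had 483.3, 405.4 and 416 CPM after 30 min and 78.7, 83.3 and 87.0 CPM after 60 min of heat, against 12.4, 9.26 and 9.40 CPM in the wet control. The lowest library at 30 min was thus well above the highest at 60 min. The log2 fold change was 5.39 ± 0.18 after 30 min (adjusted p = 1.13e-10) and 3.00 ± 0.16 after 60 min (adjusted p = 2.93e-08, edgeR). Only 168 of 20462 genes had a larger log2 fold change after 30 min, and 284 after 60 min. By this measure 785 genes rose more than IRE1 and 447 more than bZIP39 after 30 min, and 1237 and 518 after 60 min.

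The size of the 30 min values depended on how libraries were scaled. TMM factors were 0.622 to 0.706 in the 30 min libraries and 0.999 to 1.318 in all others. The 583 genes that were more than 8-fold higher at 30 min than in the wet control held 32.6% to 36.5% of all counts at 30 min and 16.0% to 16.1% at 60 min, against 1.198% to 1.381% in the wet control. They were picked by these same libraries, so a high share at 30 min is built in, and they include bZIP50, bZIP39 and bZIP60. When libraries were scaled by their total counts alone, the median over all genes moved by -0.88 at 30 min and by -0.12 at 60 min, and the calls over all genes at 30 min became 1480 higher (7.23%) and 12475 lower (61%), against 3946 and 4007 with TMM factors. At 60 min they became 2582 higher (12.6%) and 3813 lower (18.6%), against 3311 and 3235. The regulators kept their direction and their call. At 30 min their log2 fold changes with total counts only were 1.63 for IRE1, 2.43 for bZIP50, 2.58 for bZIP39 and 4.51 for bZIP60, and at 60 min they were 1.26, 2.39, 2.08 and 2.87 for the same genes in that order.

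**Figure D2:**
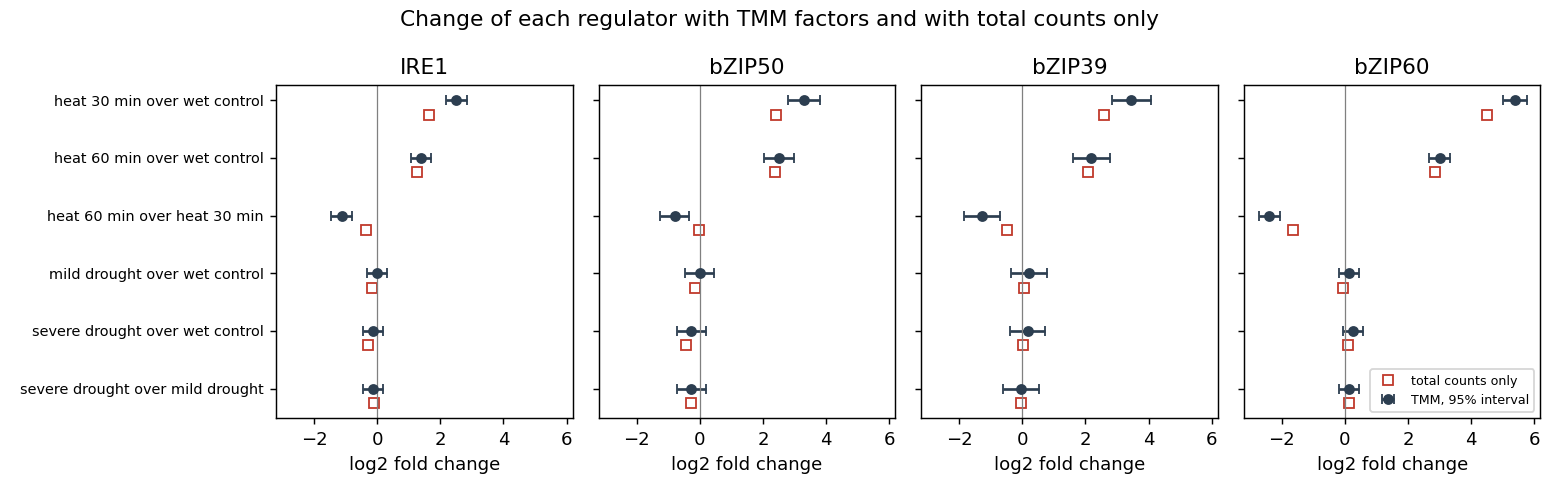
Log2 fold change of each regulator in 6 comparisons, 1 panel per gene. Filled circles are from the fit with TMM factors, with 95% intervals, and open squares are from the same fit with total counts only, drawn without intervals. For 60 over 30 min of heat the squares of IRE1, bZIP50 and bZIP39 lie nearer to 0 than the circles, while bZIP60 is well below 0 on both scales.

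Between the heat times, all 4 regulators were lower after 60 than after 30 min with TMM factors. IRE1 fell to 75.1 ± 3.88 CPM at 60 min, against 164.1 ± 0.276 CPM at 30 min (SD, n = 3 each), a log2 fold change of -1.13 ± 0.15 (SE, adjusted p = 0.000173, edgeR). bZIP50 fell to 57.4 ± 7.74 CPM, against 99.2 ± 12.4 CPM at 30 min, a log2 fold change of -0.79 ± 0.21 (adjusted p = 0.0177, edgeR). This was the smallest of the 4 falls, and its call was lost without replicate 1 at 30 min, without replicate 1 at 60 min or without replicate 2 at 60 min, with adjusted p of 0.058, 0.073 and 0.0848 (edgeR). bZIP39 fell to 99.2 ± 10.6 CPM, against 238.2 ± 15.01 CPM, a log2 fold change of -1.26 ± 0.26 (adjusted p = 0.00435, edgeR). bZIP60 fell to 83 ± 4.12 CPM, against 434.9 ± 42.3 CPM, a log2 fold change of -2.39 ± 0.15 (adjusted p = 3.54e-07, edgeR). Over all genes, 13.9% were called lower and 10.4% higher at 60 than at 30 min.

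For 3 of the 4 regulators this call depended on the scaling. With total counts only the log2 fold change between 60 and 30 min was -0.37 for IRE1 (adjusted p = 0.0628), -0.04 for bZIP50 (adjusted p = 0.914) and -0.50 for bZIP39 (adjusted p = 0.112, edgeR), none of them past the threshold. bZIP60 was still called. The same change of scaling moved the median of all genes by 0.76 and turned 2121 higher and 2850 lower calls into 10067 higher (49.2%) and 679 lower (3.32%). The deposited counts of bZIP50 were 4103, 4490 and 4384 at 60 min and 5521, 4167 and 4354 at 30 min, which overlap. Expressed as the share of the 30 min rise over the wet control that was still present at 60 min, IRE1 had 34.2%, bZIP50 53.1%, bZIP39 35.8% and bZIP60 17.1% with TMM factors, and 66.8%, 97.0%, 64.9% and 29.1% with total counts only. On both scales bZIP60 had the lowest share and bZIP50 the highest, an order given here as a description without a test.

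A ratio of 2 genes within a library does not depend on its scaling, so each factor was also set against IRE1 in the same library. Gene length cancels when such a ratio is compared between groups, but the ratio itself is not a ratio of molecules. bZIP60 had 2.94, 2.47 and 2.54 counts per IRE1 count after 30 min and 1.12, 1.07 and 1.13 after 60 min of heat, against 0.389, 0.289 and 0.413 in the wet control. The 3 groups were thus apart, with 30 min highest. The log2 ratio was higher than in the wet control by 2.88 at 30 min and by 1.62 at 60 min, and the log2 difference between 60 and 30 min was -1.26. With 3 libraries a group, the exact two-sided permutation test cannot go below 0.10, and it gave 0.10 for each of these, or 0.18 adjusted over 18 ratio tests.

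The ratio of bZIP50 to IRE1 was also above the wet control in heat, but it was higher at 60 than at 30 min. It had 0.672, 0.525 and 0.617 counts per IRE1 count at 30 min and 0.759, 0.674 and 0.860 at 60 min, against 0.381, 0.333 and 0.326 in the wet control. The log2 ratio was above the wet control by 0.80 at 30 min and by 1.14 at 60 min, and above 30 min by 0.34 at 60 min. The groups did not overlap in any of the 3 (exact permutation p = 0.10 each, the smallest possible, or 0.18 adjusted). Between the heat times the margin was narrow, at 0.6743 in the lowest 60 min library to 0.6717 in the highest 30 min library. Counting error of bZIP50 alone was 1.49% and 1.35% of the count in those libraries, in that order.

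bZIP39 had 1.34, 1.50 and 1.51 counts per IRE1 count at 30 min and 1.23, 1.38 and 1.34 at 60 min, against 0.803, 0.804 and 0.605 in the wet control. Both heat groups were above the wet control, by 0.99 and 0.85 on the log2 scale (exact permutation p = 0.10 each), while the heat times overlapped, with a difference of -0.14 (exact permutation p = 0.20), or -0.09 without replicate 1 at 60 min. The labels give only replicate numbers, and these same counts were used to take them as pairs of the heat times. Within these assumed pairs the bZIP39 ratio was lower at 60 than at 30 min in 3 of 3. The log2 differences were -0.12, -0.11 and -0.18. The bZIP60 ratio was lower in 3 of 3 pairs too and the bZIP50 ratio higher in 3 of 3, and an exact sign-flip test over 3 pairs cannot go below the 0.25 that it gave for each. Relative to IRE1, then, the ratio of bZIP60 was lower at 60 than at 30 min and that of bZIP50 was higher, whatever the scaling of the libraries. For bZIP50 the nearest libraries of the heat times were apart only by the narrow margin given above. That of bZIP39 overlapped between the heat times, and its fall within each assumed pair rests on a pairing read from these counts. With 3 libraries a group none of these tests could pass 0.05.

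**Figure D3:**
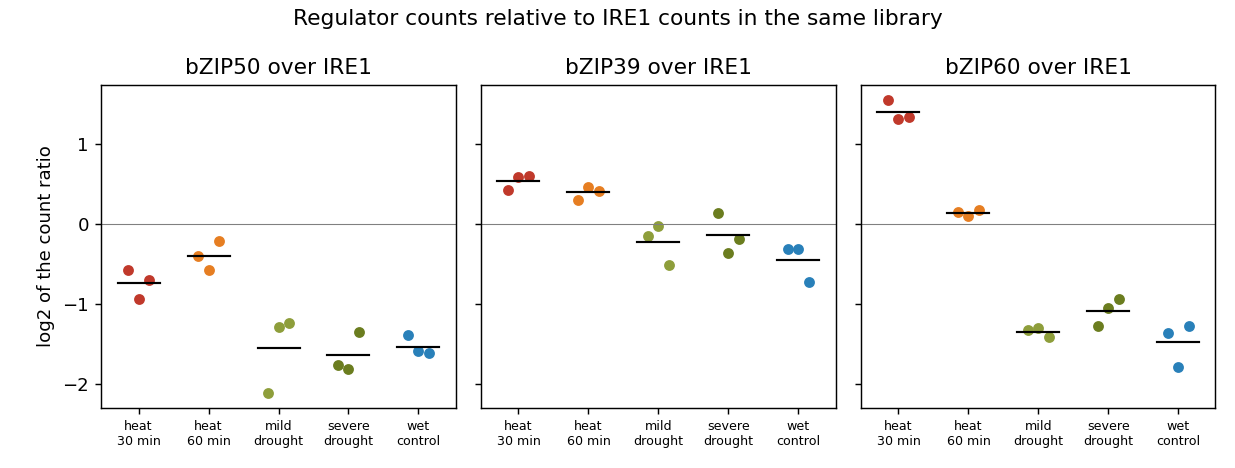
Log2 of the counts of bZIP50, bZIP39 and bZIP60 over the counts of IRE1 in the same library, 1 panel per factor. Points are libraries and lines are group means (n = 3). The bZIP60 ratio is highest at 30 min of heat, the bZIP50 ratio at 60 min, and the bZIP39 ratios of both heat times overlap.

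In drought, 0 of the 4 regulators were past the threshold in either soil by edgeR, 0 had an unadjusted p under 0.05 and 0 were called by DESeq2. Over all genes, 0.909% were called higher and 0.528% lower in mild drought, and 1.64% higher and 1.05% lower in severe drought by edgeR. DESeq2 called 4.85% higher and 5.95% lower in mild drought, and 4.51% higher and 4.43% lower in severe drought. With so few genes called, a count of 0 in 4 says little about these regulators. The edgeR counts in mild drought also moved with single libraries, with 23 higher and 7 lower when replicate 1 of that group was left out, and 498 higher and 804 lower when its replicate 3 was. Higher calls were in the majority with TMM factors, at 186 against 108 lower in mild and 335 against 215 in severe drought, but not with total counts only, at 99 against 123 and 200 against 257. IRE1 had 30.5, 30.1 and 25.6 CPM in mild and 29.4, 27.3 and 22.3 CPM in severe drought, and both ranges overlapped the wet control. Its log2 fold change was -0.009 in mild drought (95% interval -0.33 to 0.31, adjusted p = 0.979) and -0.13 in severe drought (-0.45 to 0.19, adjusted p = 0.664, edgeR).

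bZIP50 had 7.04, 12.3 and 10.9 CPM in mild and 8.65, 7.78 and 8.74 CPM in severe drought. Its log2 fold change was 0.002 in mild drought (95% interval -0.46 to 0.46, adjusted p = 0.996) and -0.27 in severe drought (-0.73 to 0.20, adjusted p = 0.531, edgeR). bZIP39 had 27.4, 29.7 and 17.9 CPM in mild and 32.2, 21.3 and 19.6 CPM in severe drought, and again both ranges overlapped the wet control. Its log2 fold change was 0.20 in mild drought (95% interval -0.36 to 0.77, adjusted p = 0.673) and 0.17 in severe drought (-0.40 to 0.73, adjusted p = 0.771, edgeR). The intervals of bZIP39 were the widest of the 4 genes.

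bZIP60 had 12.2, 12.2 and 9.59 CPM in mild and 12.1, 13.2 and 11.6 CPM in severe drought. Its log2 fold change was 0.13 in mild drought (95% interval -0.19 to 0.45, adjusted p = 0.632) and 0.25 in severe drought (-0.07 to 0.57, adjusted p = 0.378, edgeR). The upper bounds for all 4 genes, 0.77 in mild and 0.73 in severe drought at most, lie below the smallest log2 fold change in heat, 1.38 for IRE1 at 60 min. Relative to IRE1, bZIP60 had 0.413, 0.483 and 0.522 counts per IRE1 count in severe drought. The groups did not overlap, by the narrow margin of 0.4134 in the lowest severe drought library to 0.4128 in the highest wet control library, and the log2 difference was 0.39 (exact permutation p = 0.10, adjusted 0.18). Without wet control replicate 2 it was 0.23 (exact permutation p = 0.20). It was also above mild drought, by 0.26, without overlap (exact permutation p = 0.10). The other ratios in drought overlapped the wet control.

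Severe was also compared with mild drought. No gene at all was called by edgeR, 0% higher and 0% lower, with 569 genes at an unadjusted p under 0.05 and 46 called by DESeq2, 0.0884% of genes higher and 0.126% lower. Without mild drought replicate 2, edgeR called 4 genes lower. The regulators had log2 fold changes of -0.12 for IRE1, -0.27 for bZIP50, -0.04 for bZIP39 and 0.12 for bZIP60 (adjusted p = 1 each, edgeR), and 0 of 4 had an unadjusted p under 0.05.

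Ordered by mean level, every regulator was highest at 30 min of heat and next at 60 min. Below that, the 3 unheated groups followed in a different order for each gene and all overlapped. The step from 60 min of heat to the next group was past the threshold each time. For IRE1 that group was the wet control, given above. For bZIP50 it was mild drought, with a log2 fold change over 60 min of heat of -2.51 ± 0.22 (adjusted p = 3.42e-06), and likewise for bZIP39, with -1.99 ± 0.27 (adjusted p = 0.000118, edgeR). For bZIP60 it was severe drought, with -2.75 ± 0.16 (adjusted p = 6.78e-08, edgeR). Over all genes, 16.3% were called lower in mild drought and 18.4% in severe drought than at 60 min of heat.

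Wet control replicate 3 was the lowest of its group for IRE1, bZIP50 and bZIP39. The heat shock gene HSP16.9A had 249 counts there, against 8 and 6 in the other two, and HSP101 had 350, against 114 and 128. Without this library the 4 regulators were still called higher in heat, with log2 fold changes at 30 min of 2.35 for IRE1, 3.11 for bZIP50, 3.20 for bZIP39 and 5.32 for bZIP60. At 60 min they were 1.25, 2.34, 1.96 and 2.95 for the same genes in that order. After 30 min of heat, replicate 1 was the highest of its group for bZIP50 and bZIP60 and the lowest for bZIP39.

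Chaperones and folding enzymes of the endoplasmic reticulum, the class of genes that the unfolded protein response is known to raise, were described from a list of 20 loci. Of these, 17 were in the table and 9 had a name that the reference places near the expected position. These 9 were BiP1, a luminal HSP70 chaperone, CRT1, a calreticulin that binds sugar chains, and 7 protein disulfide isomerases, PDIL1-1, PDIL1-2, PDIL1-4, PDIL2-1, PDIL2-2, PDIL2-3 and PDIL5-1. After 30 min of heat 5 of 9 were higher and 2 lower, where 19.3% of all genes were called higher and 19.6% lower. Their median log2 fold change was 0.42, against -0.14 over all genes. With total counts only, 3 of 9 were higher and 5 lower at 30 min, where 7.23% of all genes were called higher and 61% lower, so the lower calls were near the share over all genes on both scales. After 60 min 4 of 9 were higher and 2 lower, where 16.2% of all genes were called higher and 15.8% lower, and the median was 0.425, against -0.09 over all genes. With every listed locus in the table that passed the filter, 16 in all, 12 were higher and 2 lower at 30 min, and 11 higher and 2 lower at 60 min. Of the 9, the 5 higher at 30 min became 4 with no filter, with the replicate block and with the 2 groups alone. They also became 4 with any library of the 2 groups left out except wet control replicate 1. The 2 lower at 60 min became 1 without replicate 1 or 3 of that group or without wet control replicate 1. How reads of close copies were counted is not given in the sources used here, so levels of single BiP and PDIL genes are uncertain.

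BiP1 had 5477, 3392 and 3338 CPM after 30 min and 2420, 1445 and 1598 CPM after 60 min of heat, against 184, 124.1 and 110.8 CPM in the wet control. Its log2 fold change was 4.87 ± 0.37 at 30 min (adjusted p = 2.81e-07) and 3.71 ± 0.35 at 60 min (adjusted p = 5.38e-06, edgeR). CRT1 averaged 1560 ± 187 CPM at 30 min and 1072 ± 113 CPM at 60 min, against 139.5 ± 30.9 CPM in the wet control (SD, n = 3 each). It was thus also among the steep rises, at 3.48 ± 0.21 (adjusted p = 2.36e-08) and 2.94 ± 0.20 (adjusted p = 2.91e-07, edgeR).

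PDIL2-3 (LOC_Os09g27830.MSUv7.0) had 1153, 834.3 and 778.9 CPM after 30 min and 459.1, 316.7 and 331.4 CPM after 60 min of heat, against 37.7, 30.3 and 23.7 CPM in the wet control. Its log2 fold change was 4.92 ± 0.24 at 30 min (adjusted p = 3.66e-09) and 3.59 ± 0.23 at 60 min (adjusted p = 1.52e-07, edgeR). At 30 min the libraries of BiP1, CRT1 and PDIL2-3, like those of bZIP50 and bZIP60, had replicate 1 highest.

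The other isomerases varied in direction, as seen after their values were known. PDIL1-1 rose at both times, by 1.67 ± 0.30 and 1.71 ± 0.31 (adjusted p = 0.000789 and 0.00102, edgeR), although with total counts only it missed the threshold at 30 min, at 0.79 (adjusted p = 0.056). PDIL1-2 fell by 1.21 ± 0.31 at 30 min and by 1.36 ± 0.31 at 60 min (adjusted p = 0.00749 and 0.00471), and PDIL1-4 fell by 1.06 ± 0.28 at 30 min and by 0.82 ± 0.27 at 60 min (adjusted p = 0.00856 and 0.0361, edgeR). PDIL2-1 was called higher at 30 min with TMM factors, at 0.42 ± 0.15 (adjusted p = 0.0458), and called lower with total counts only, at -0.48 (adjusted p = 0.0366, edgeR). The 3 genes called higher at 30 min with total counts only were BiP1, CRT1 and PDIL2-3.

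Between the heat times, 2 of 9 were lower at 60 than at 30 min and 0 higher, where 13.9% of all genes were called lower and 10.4% higher. An unadjusted p under 0.05 was reached by 4 of 9, and DESeq2 called 4, where it called 3490 of 20614 genes lower and 2638 (12.8%) higher. The 2 became 1 without replicate 1 at 30 min or without replicate 2 or 3 at 60 min. PDIL2-3 fell by 1.32 ± 0.21 on the log2 scale (adjusted p = 0.00067) and BiP1 fell by 1.16 ± 0.32 (adjusted p = 0.019, edgeR). With total counts only the BiP1 value was -0.43 (adjusted p = 0.301) and that of PDIL2-3 -0.58 (adjusted p = 0.0459), while 4 other isomerases were then called higher, where 49.2% of all genes were called higher and 3.32% lower on that scaling. The median over the 9 was -0.10, against -0.02 over all genes.

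In drought, 0 of the 9 passed the threshold in either soil by edgeR and 0 by DESeq2, with 0 in mild and 1 in severe drought at an unadjusted p under 0.05. The share of all genes called was 0.528% to 1.64% per direction by edgeR and 4.43% to 5.95% by DESeq2, so a count of 0 in 9 says little about this list. The smallest p in mild drought was that of PDIL2-2, with 33.0 ± 3.75 CPM in mild drought against 29.7 ± 5.85 CPM in the wet control, a log2 fold change of 0.16 ± 0.15 (adjusted p = 0.566, edgeR). In severe drought it was that of CRT1, with 104.8 ± 13.3 CPM against 139.5 ± 30.9 CPM in the wet control, at -0.41 ± 0.19 (adjusted p = 0.255, edgeR). The medians over the 9 were 0.08 in mild and -0.10 in severe drought. Between severe and mild drought 0 of 9 passed the test by either tool and 0 had an unadjusted p under 0.05, and the smallest p was that of PDIL2-3, at -0.33 ± 0.21 (adjusted p = 1, edgeR).

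**Figure D4:**
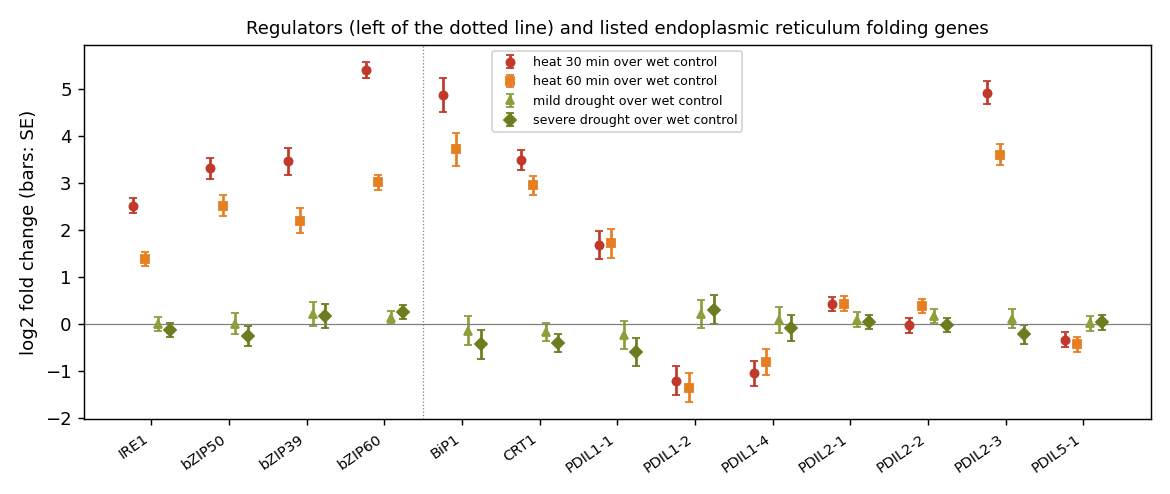
Log2 fold change against the wet control of the 4 regulators, left of the dotted line, and of 9 listed folding genes, right of it. Markers stand for 30 and 60 min of heat and for mild and severe drought, and bars are SE. BiP1, CRT1 and PDIL2-3 lie between 2.94 and 4.92 in heat, PDIL1-2 and PDIL1-4 lie below 0 in heat, and the drought values of all 13 genes lie between -0.60 and 0.30.

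The genes whose log2 CPM ran closest to each regulator over the 15 libraries were ranked by Pearson's r, which here reflects mostly the difference between heated and unheated libraries. For IRE1 they were LOC_Os08g39150.MSUv7.0, with r = 0.997, and LOC_Os01g09246.MSUv7.0, with r = 0.996. For bZIP50 they were LOC_Os09g31486.MSUv7.0, with r = 0.992, and PDIL2-3, with r = 0.990. For bZIP39 they were LOC_Os08g24420.MSUv7.0, with r = 0.997, and LOC_Os05g29050.MSUv7.0, with r = 0.996. For bZIP60 they were LOC_Os03g60780.MSUv7.0, with r = 0.998, and LOC_Os12g01930.MSUv7.0, with r = 0.997. None of these was another regulator, and their log2 fold changes against the wet control were 3.05 to 7.16 at 30 min and 1.94 to 4.21 at 60 min. Among the regulators themselves r was 0.966 to 0.991, and the closest pair was IRE1 and bZIP39. By Spearman's rank correlation 0 of the 2 genes were the same for any regulator. With total counts only, both genes stayed the nearest for bZIP60. The 2 genes of bZIP50 then ranked 5 and 16, the latter being PDIL2-3. Those of IRE1 ranked 28 and 2, and those of bZIP39 ranked 2 and 4.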

How the data were processed

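Per the labels' protocols, shoot RNA came from an RNeasy kit and the mRNA libraries, of a NEBNext kit, kept the strand. The deposited values are raw read counts per gene. The submitters' processing notes name Trimmomatic for trimming, HISAT2 for alignment and featureCounts for counting. Tool versions, genome build and strand setting were not given in the sources used here, so reads of close copies and of antisense genes may be mixed. Sample titles gave each group and replicate number.

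The test was that of edgeR 4.0.16 (with limma 3.58.1, in R 4.3.3) after filterByExpr (minimum count 10, minimum total 15). All 15 libraries entered 1 quasi-likelihood fit with TMM factors, robust dispersion and a mean for each group. Adjusted p are Benjamini-Hochberg values, with a threshold of 0.05. The SE is the log2 fold change divided by the square root of F. Log2 CPM for correlations had a prior count of 2. Of 24073 genes, 1205 had no count in any library. Intervals, counting errors and the floor of 3 counts leave out that reads lacking molecular identifiers can be copies of 1 molecule, and so cover counting or model error only. Replicates differed by a chi-square of 31.1 to 495.3 per gene, so no 2 of a group were taken as 1 library. The methods were tested on simulated counts before use.

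Fold changes and counts of calls were also computed with a replicate block, with each library left out, with RLE size factors, with total counts only, in a fit of only the 2 groups, with no filter and in DESeq2 1.42.0. Ratios were also computed with pseudocounts, and the most similar genes by Spearman correlation and with total counts only. Replicate numbers were taken to pair samples where deviations from the group means correlated over 0.1 for every same-numbered pair, which was so for 60 and 30 min of heat (0.21 to 0.45), in 1 of 10 pairs of groups, and is read from these values since the labels give only the numbers. The count with every listed locus and the ratios within replicate numbers were chosen after seeing the data.

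The regulators, lists and tests were chosen with earlier results of these data known. By rule the text names all 4 regulators, up to 3 listed genes per comparison past the threshold with the smallest p, or else the 1 with the smallest p, and the 2 genes most like each regulator. Beyond this rule, further isomerases in heat and a locus in the closing section were named after their values were seen. Names came from the reference assembly ASM3414082v1, which pairs no MSU identifiers, so a name was used only where its symbol lies within 1500 kb of the expected place by gene order. This held for all 4 regulators and 9 of 20 listed loci, and it cannot separate close neighbours. A search of promoters for motifs was planned and not run, since no sequence was used here.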

Additional observations from a re-analysis of the deposited data

Results flagged for a closer look

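For each of the 4 regulators the response to heat differed between the times, by the test of the 60 min libraries against the 30 min libraries, which is also the difference of both responses against the shared wet control. That difference, 60 min minus 30 min on the log2 scale, was -2.39 for bZIP60 (adjusted p = 3.54e-07), -1.26 for bZIP39 (adjusted p = 0.00435), -1.13 for IRE1 (adjusted p = 0.000173) and -0.79 for bZIP50 (adjusted p = 0.0177, edgeR). With TMM factors all 3 libraries at 60 min lay below all 3 at 30 min for each of these genes. How many of all genes did so was not counted. By total counts the libraries of bZIP50 overlapped, with 57.2, 58.6 and 75.0 CPM at 60 min and 77.9, 53.4 and 64.2 CPM at 30 min. With total counts only, the difference passed the threshold for bZIP60 alone among the 4. The genes that were over 8-fold higher at 30 min held 16.0% to 16.1% of counts at 60 min and 32.6% to 36.5% at 30 min. They were picked by their 30 min values in these data, so a high share there is built in. They include bZIP50, bZIP39 and bZIP60, and the part of this share in the difference was not tested.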

How the results depend on the processing

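Every called rise of the 4 regulators in heat against the wet control had the same direction and call in all 96 values under the alternatives run. Of 48 values between 60 and 30 min of heat, 42 did so. The 6 others were bZIP50 when a library was left out (3 of them, with a range of -0.89 to -0.70 over the libraries left out) and, with total counts only, IRE1 at -0.37, bZIP50 at -0.036 and bZIP39 at -0.50. Of 144 values in drought, none passed the threshold, and 18 changed sign. In mild drought these were IRE1 with RLE factors (0.007) and DESeq2 (0.006), bZIP50 with total counts only (-0.15) and with 2 groups alone (-0.027), and bZIP60 with total counts only (-0.054). With libraries left out, the ranges in mild drought were -0.14 to 0.08 for IRE1, -0.17 to 0.21 for bZIP50 and -0.026 to 0.40 for bZIP39. They were -0.085 to 0.31 for bZIP39 in severe drought and -0.29 to 0.11 for bZIP39 between the droughts. The ratio to IRE1 moved by less than the spread between replicates under every alternative run, but these alternatives could hardly have given more. Leaving out a library cannot move a group mean of 3 by that much. The replicate block gives the same mean difference, and the pseudocounts were small beside the counts. So this says little about how stable the ratios are. With the replicate block no call of a regulator changed, and IRE1 at 30 min of heat was 2.52. That block takes the same replicate effect in all groups, while replicate numbers paired samples only for the heat times.

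Of the folding genes, with total counts only 3 were higher and 5 lower at 30 min, and 4 higher and 1 lower between the heat times. DESeq2 and the 2 groups alone each gave 1 higher between the heat times, and the 2 groups alone gave 1 lower at 60 min. With no filter, with the replicate block and with the 2 groups alone, 4 were higher at 30 min, against 5 in the main fit. With libraries left out, 4 to 5 were higher at 30 min and 4 to 6 at 60 min. In those fits 1 to 2 were lower at 60 min and 1 to 2 between the heat times. With every listed locus that passed the filter, also those without a checked name, 12 of 16 were higher at 30 min and 11 of 16 at 60 min. Over all genes 19.3% and 16.2% were called higher. Between the heat times 6 of 16 were lower, where 13.9% of all genes were. The cause of these changes was not tested.

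Over all genes, counts moved by over 1.5 times as follows. In mild drought 186 were higher and 108 lower, against 999 and 1227 with DESeq2, 0 and 0 with the 2 groups alone, 99 higher with total counts only, 65 lower with the replicate block, and, with libraries left out, 23 higher and 7 lower (without mild drought replicate 1) to 498 and 804 (without mild drought replicate 3). In severe drought 335 were higher and 215 lower, against 911 and 893 with DESeq2, 13 and 19 with the 2 groups alone, 200 higher with total counts only, and 142 higher and 73 lower (without severe drought replicate 3) to 353 and 264 (without wet control replicate 2) with libraries left out. Between the droughts 0 were called, against 19 higher and 27 lower with DESeq2 and 4 lower without mild drought replicate 2. The heat counts with total counts only stand with the results. Between the heat times 2121 were higher and 2850 lower, against 3449 higher with the 2 groups alone and 1276 (without replicate 2 at 60 min) to 1727 higher and 1643 (without replicate 3 at 60 min) to 2378 lower with libraries left out. At 60 min 3235 were lower, against 2002 (without replicate 2 at 60 min) to 3437 (without wet control replicate 2).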

Other observations

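A locus of the list of folding genes was singled out after its values were seen, since nearly all of its counts were in heated libraries. LOC_Os05g35400.MSUv7.0 was listed as BiP3, but in the reference the symbol BIP4 lies 219 kb from its expected place and BIP3 3161 kb, so it is given by identifier. It had 82, 6 and 8 counts at 30 min and 1168, 34 and 456 counts at 60 min of heat, 0 in each drought library, and 2, 0 and 2 in the wet control. Its libraries at 60 min thus differed among themselves by more than those of any of the 4 regulators, and the difference between 60 and 30 min did not pass the threshold, at 3.52 ± 1.33 on the log2 scale (adjusted p = 0.0889, edgeR). Unlike the 4 regulators, its mean was higher at 60 min, with 7.52 CPM, than at 30 min, with 0.650 CPM.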
